A study of Mus musculus with 6 samples.

Results

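The aminoacyl-tRNA synthetases are the enzymes that load each transfer RNA (tRNA) with its amino acid. The list described here held 37 genes and was drawn up by gene symbol: 20 genes for cytosolic enzymes, 15 for enzymes that work only in mitochondria, and 2 for scaffold proteins, out of 23284 genes listed. All 37 symbols were found in each library's table. The genes were chosen by function, with the fold changes of these same libraries already known, so the counts over them describe these libraries and carry no test of their own.

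Whole mouse hearts of C57BL/6 embryos at day E13.5 were profiled by sequencing of polyadenylated RNA. In the Tfam KO group both alleles of Tfam were floxed (Tfamfl/fl; Nkx2.5IRES-Cre/+). The Control group had 1 floxed allele (Tfamfl/+; Nkx2.5IRES-Cre/+), so both groups carried Cre recombinase in 1 copy of the Nkx2-5 locus, which drives it in the cardiac lineage. Cells of the heart outside that lineage keep Tfam. Each group had 3 libraries and every library was a pool of 5 hearts, so the spread is between pools. Tfam encodes a protein that packages mitochondrial DNA and without which that DNA is neither transcribed nor copied, and the comparison asks how the transcript levels of the heart differ without it.

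Charging is done by separate sets of enzymes for the cytosol and for the mitochondrial matrix, nearly all of them encoded in the nucleus by different genes. Gars and Kars are the exceptions in mammals, where 1 gene makes both forms. In the cytosol, several synthetases are held together with scaffold proteins in the multi-synthetase complex, while the others are not part of it. Many genes of cytosolic synthetases are known targets of ATF4, the transcription factor of the integrated stress response, which is turned on by amino acid shortage and by mitochondrial damage.

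Levels are given in FPKM, which is reads scaled to transcript length and library total and so allows levels of different genes to be set side by side. Values of 3 libraries are always in the order of replicates 1, 2 and 3. Libraries held 12370092 to 18078620 reads, and the cytosolic enzymes were backed by 146 to 11127 reads per gene and library against 19 to 1049 for the mitochondrial ones. The ribosomal RNA precursor Rn45s took 14.95% to 32.5% of reads, lowest in Tfam KO replicate 3, and the median gene was higher in Tfam KO by 0.28 (log2) on the deposited scale, and by 0.01 after each library was divided by a size factor (the size-factor scale). On the deposited scale the fit took its variance from a trend over all genes and not from the spread of each gene, so SEs there are nearly alike and the small p-values rest on that trend; Sars, for example, went from an adjusted p of 5.93e-16 to 0.00129 when low genes were kept. Both scales are given, and rose or fell is used only of a gene with an adjusted p under 0.05 in the same direction on both. Tfam itself was at 3.97, 4.77 and 6.22 FPKM in the Tfam KO libraries and 4.64, 5.55 and 6.62 FPKM in the Control libraries, with a log2 fold change of -0.15 on the deposited scale (adjusted p = 0.651) and -0.42 on the size-factor scale (adjusted p = 0.152). Divided by size factors, it was at 3.39, 5.17 and 4.68 FPKM in Tfam KO and 5.60, 6.39 and 6.55 FPKM in Control, each Tfam KO library below each Control library, and limma-voom on the reads gave -0.52 (adjusted p = 0.0783). Values are per gene, so reads inside and outside the floxed part were not separated.

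Marker genes of the cell types in the heart and around it were read from lists. These held cardiomyocyte, endothelial, epicardial, mesenchymal, blood, macrophage, liver, skeletal muscle and lung genes. Of those tested, 0 passed on both scales in either direction, against 2.07% of all genes higher and 0.953% lower. Only 2 of the 4 blood genes, 1 of the 2 liver genes and 0 of the skeletal muscle and lung genes were tested. With so few genes, 0 calls is near the share over all genes. The 5 cardiomyocyte markers were all present, and their summed level was 7079 to 9525 FPKM in Tfam KO and 7833 to 9617 FPKM in Control. Their median log2 fold change was -0.44 on the size-factor scale, and 1 of the 5, Nkx2-5, the locus that carries Cre in both groups, was lower on that scale. In limma-voom Nkx2-5 (-1.01, adjusted p = 0.00646) and Myh7, a myosin heavy chain (-0.65, adjusted p = 0.0424), were lower. The 4 markers of fibroblasts and valve mesenchyme summed to 217 to 319 FPKM and 153 to 212 FPKM, and 1 of them, Postn, was higher on the deposited scale. The liver markers Alb and Afp together reached 5.06 FPKM at most, and Alb was lower in Tfam KO on the deposited scale and in limma-voom. The part of these cell types in the values of the charging enzymes was not tested.

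Transcripts of 14 of the 20 cytosolic charging enzymes rose in Tfam KO hearts, and 0 of the mitochondrial enzymes did. As deposited, 17 of 36 genes on the list passed upward and 0 downward, against 6.21% of all 10807 genes tested called higher and 1.16% called lower. With size factors it was 14 upward and 0 downward, against 2.07% and 2.5% of all genes. The same 14 passed on both scales, where the shares of all genes are 2.07% upward and 0.953% downward, and all 14 were cytosolic enzymes. In limma-voom, a fit on whole reads recovered from the FPKM values, 14 members were higher and 0 lower, against 2.55% and 4.27% of all genes. Of the 14 mitochondrial enzymes tested, 0 rose. Rars2 passed on the deposited scale, and 0 passed on the size-factor scale in limma or in limma-voom. At an unadjusted limma p under 0.05 on the size-factor scale, 2 of the 14 were above Control and 0 below. At that level 959 of all 10807 genes tested were above Control and 1124 below. Pars2, the mitochondrial proline enzyme, was below the filter of a mean of 1 FPKM and was not tested.

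The median log2 fold change was 1.30 over the cytosolic enzymes on the deposited scale and 0.99 on the size-factor scale. It was 0.27 and 0.012 over the mitochondrial enzymes tested, and 0.28 and 0.01 over all genes tested. Among cytosolic enzymes the values on the size-factor scale ran from -0.086 to 1.70, and a gap lay between the 14 that rose, the lowest at 0.74, and the 6 that did not pass, the highest at 0.32. With size factors, all Tfam KO libraries lay above all Control libraries in 15 of 20 cytosolic, 2 of 14 mitochondrial and 2 of 2 scaffold genes, against 12.5% of all genes tested. As deposited it was 15, 7 and 2 genes, against 25.6% of all genes tested. RNA came from whole hearts, so more cells of a type and more RNA per cell cannot be told apart.

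**Figure D1:**
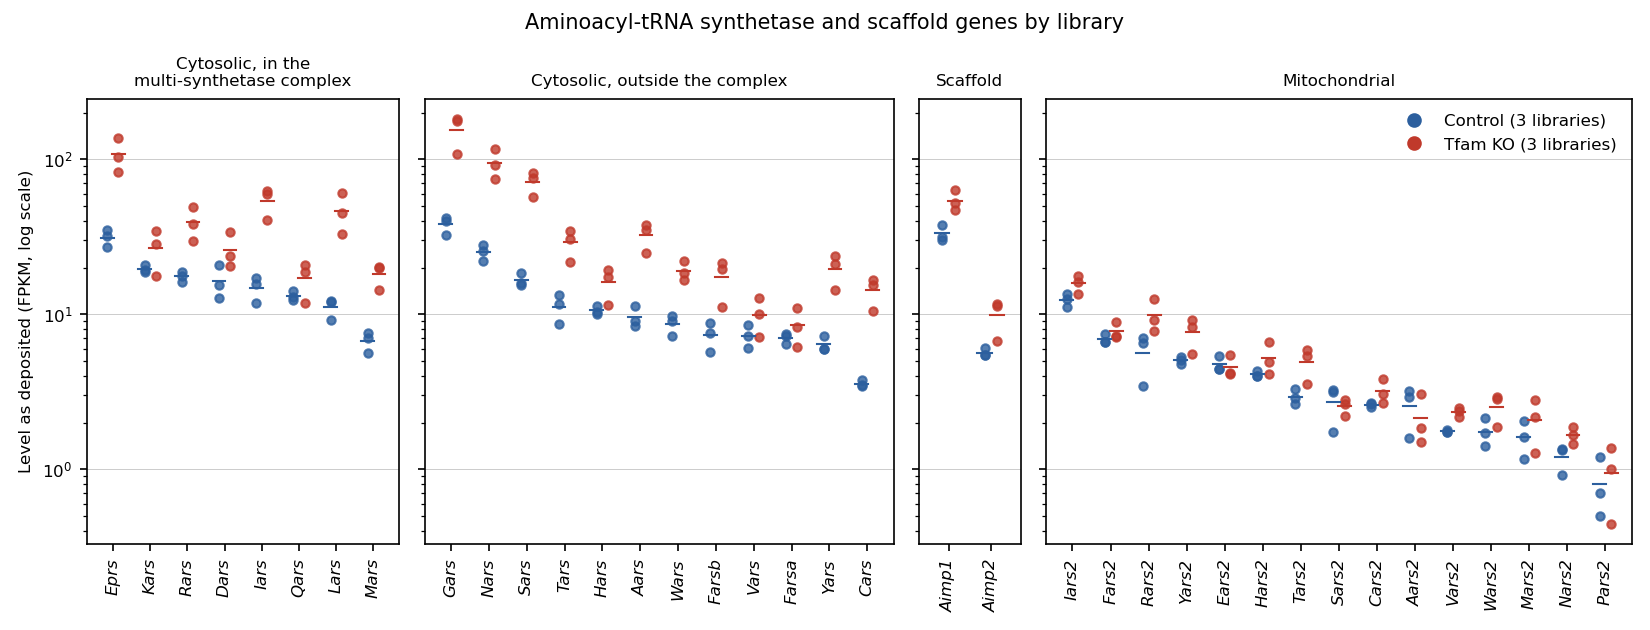
Level of each gene in FPKM on the deposited scale (log axis) in every library, Control in blue and Tfam KO in red, with a short line at the mean of 3 libraries; genes are ordered by their Control mean within each set. Gars has the highest mean in both groups, at 38.0 and 155 FPKM, and the mitochondrial enzymes sit below most cytosolic ones with the red and blue points close together.

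Short stretches of promoter are shown for the 5 members whose promoter holds the ATF4 element, since 14 of 20 cytosolic genes rose. RefSeq promoters on GRCm38.p6, from 250 bases before to 50 after the gene start, were matched for 28 of the 37 members. They were searched on both strands for TGATGNAA, the core of the C/EBP-ATF response element that ATF4 binds. The element was found in 5 of 13 cytosolic enzyme genes, 0 of 13 mitochondrial enzyme genes and 0 of 2 scaffold genes. It is in 2.63% of the 7762 tested genes with a promoter in the table and in 3.97% of all promoters. The 5 genes were Aars, Gars, Iars, Tars and Yars, and all 5 were among the 9 matched cytosolic genes that rose. None of the 4 matched cytosolic genes that did not pass held it. Each line below gives 30 bases, 5′ to 3′ on the strand on which the element reads forward, with the element in capitals and positions counted from the gene start as 1.
Aars, chr8:111033840-111033869 (-), element at 10 to 17: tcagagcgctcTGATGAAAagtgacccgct
Gars, chr6:55037960-55037989 (-), element at -30 to -23: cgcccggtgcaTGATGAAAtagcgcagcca
Iars, chr13:49682126-49682155 (-), element at 8 to 15: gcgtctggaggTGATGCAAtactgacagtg
Tars, chr15:11399655-11399684 (+), element at -15 to -8: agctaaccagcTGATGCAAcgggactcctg
Yars, chr4:129189895-129189924 (+), element at 4 to 11: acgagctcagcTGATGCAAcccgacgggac

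In all 5 genes a copy lay within 30 bases of the RefSeq gene start. The GENCODE gene starts of Aars (111033144) and Yars (129189760) lie further upstream. The share of other promoters with a copy this close was not computed. The 250 bases before the start of Gars, the gene with the highest mean level, are given next to those of Sars, which had the largest change and holds no copy in this window. They read on the strand of the gene, so the copy of Gars, in capitals, appears there as its reverse complement. A match is a description of letters and shows no binding, and no match says only that these letters are absent from the window.
Gars, chr6:55037751-55038000 (+), 1 copy: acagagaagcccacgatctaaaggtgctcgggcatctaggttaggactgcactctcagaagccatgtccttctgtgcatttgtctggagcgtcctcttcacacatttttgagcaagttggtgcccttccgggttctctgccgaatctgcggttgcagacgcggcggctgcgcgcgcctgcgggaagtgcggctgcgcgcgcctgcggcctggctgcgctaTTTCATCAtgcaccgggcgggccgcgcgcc
Sars, chr3:108445260-108445509 (-), 0 copies: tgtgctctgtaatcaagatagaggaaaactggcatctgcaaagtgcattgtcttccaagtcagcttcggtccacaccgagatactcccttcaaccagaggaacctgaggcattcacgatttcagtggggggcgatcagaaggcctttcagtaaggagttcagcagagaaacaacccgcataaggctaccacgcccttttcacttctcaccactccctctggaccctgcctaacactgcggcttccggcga

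Within the multi-synthetase complex, 5 of 8 enzyme genes rose and 3 did not pass. The 5 were Lars, Iars, Eprs, Mars and Rars, for leucine, isoleucine, glutamate with proline, methionine and arginine. Lars, which also has a known part in leucine sensing by mTORC1, was at 45.1, 32.8 and 60.9 FPKM in the Tfam KO libraries and 9.13, 11.96 and 12.2 FPKM in the Control libraries. The lowest Tfam KO library was well above the highest Control library. For Lars the log2 fold change was 1.93 on the deposited scale (SE 0.23, adjusted p = 1.66e-14) and 1.62 on the size-factor scale (SE 0.13, adjusted p = 9.92e-05). Iars was at 59.5, 40.3 and 62.5 FPKM in Tfam KO and 11.8, 15.7 and 17.2 FPKM in Control, again without overlap. For Iars the log2 fold change was 1.79 on the deposited scale (SE 0.23, adjusted p = 1.95e-12) and 1.47 on the size-factor scale (SE 0.13, adjusted p = 1.11e-04).

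Eprs joins the glutamate and the proline enzyme in 1 protein and was the second most abundant enzyme transcript in Control hearts. It was measured at 103, 83.2 and 137 FPKM in Tfam KO and 27.1, 31.9 and 34.8 FPKM in Control. All Tfam KO libraries were higher, with a log2 fold change of 1.73 on the deposited scale (SE 0.23, adjusted p = 7.21e-12) and 1.41 on the size-factor scale (SE 0.12, adjusted p = 9.92e-05). Mars, the methionine enzyme needed for both initiator and elongator tRNA, had 20.2, 14.4 and 19.8 FPKM against 5.62, 7.01 and 7.52 FPKM. Its libraries did not overlap and its log2 fold change was 1.30 on the deposited scale (SE 0.23, adjusted p = 1.43e-06) and 1.002 on the size-factor scale (SE 0.12, adjusted p = 8.31e-04). Of the annotated exon bases of Mars, 1.99% are shared with Ddit3, the gene of the stress factor CHOP, and their part in the value was not tested. Rars, for arginine, rose from 17.6 ± 1.35 to 39.2 ± 9.78 FPKM, with a log2 fold change of 1.09 on the deposited scale (adjusted p = 1.46e-04) and 0.77 on the size-factor scale (adjusted p = 0.00323).

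The enzymes of the complex that did not pass were those for aspartate, lysine and glutamine. Dars was at 16.4 ± 4.14 FPKM in Control and 26.0 ± 7.02 FPKM in Tfam KO (SD, n = 3 each, as for all such values here), and its log2 fold change was 0.63 on the deposited scale (adjusted p = 0.0667) and 0.32 on the size-factor scale (adjusted p = 0.235). The Tfam KO and Control libraries overlapped by a small amount, at 20.4 FPKM in Tfam KO replicate 2 and 20.9 FPKM in Control replicate 3. Kars was at 19.6 ± 0.996 FPKM in Control and 26.9 ± 8.45 FPKM in Tfam KO, with a log2 fold change of 0.39 on the deposited scale (adjusted p = 0.2503) and 0.076 on the size-factor scale (adjusted p = 0.809). Qars, the glutamine enzyme, was at 13.2 ± 0.822 FPKM in Control and 17.2 ± 4.81 FPKM in Tfam KO, with 0.32 on the deposited scale (adjusted p = 0.335) and 0.013 on the size-factor scale (adjusted p = 0.971). In both Kars and Qars, Tfam KO replicate 2 was below all Control libraries.

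The 2 scaffold genes on the list had like values and passed on the deposited scale only. Aimp1, which anchors the arginine and glutamine enzymes and is also secreted as a cytokine precursor, was at 52.2, 46.9 and 62.9 FPKM in Tfam KO and 30.3, 31.6 and 37.8 FPKM in Control. For Aimp1 the log2 fold change was 0.68 on the deposited scale (SE 0.23, adjusted p = 0.0444) and 0.36 on the size-factor scale (SE 0.11, adjusted p = 0.0981). Aimp2, which joins the parts of the complex, was at 11.4, 6.72 and 11.7 FPKM in Tfam KO and 5.45, 6.07 and 5.46 FPKM in Control. For Aimp2 the log2 fold change was 0.68 on the deposited scale (SE 0.23, adjusted p = 0.0434) and 0.39 on the size-factor scale (SE 0.14, adjusted p = 0.161). In both genes every Tfam KO library was above every Control library on both scales. Aimp2 shares 29.4% of its annotated exon bases with Eif2ak1, the gene of a stress kinase, and the part of those reads was not tested. Eef1e1, the third scaffold of the complex, was at 8.36, 5.44 and 11.8 FPKM against 4.08, 7.16 and 8.25 FPKM, and its groups overlapped (adjusted p = 0.315 on the deposited scale).

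Outside the complex, 9 of 12 cytosolic enzyme genes rose. The largest change of all members was that of Sars, for serine, which also charges the tRNA of selenocysteine with serine. It was at 81.4, 57.0 and 75.4 FPKM in Tfam KO and 15.6, 15.9 and 18.5 FPKM in Control. For Sars the log2 fold change was 2.02 on the deposited scale (SE 0.23, adjusted p = 5.93e-16) and 1.70 on the size-factor scale (SE 0.12, adjusted p = 2.77e-05), and the ratio of means was 3.39 on the size-factor scale. Gars, for glycine in both compartments, had the highest mean of all members in either group, not separated by its libraries from Aimp1 in Control or from Eprs in Tfam KO. It was at 181, 107 and 177 FPKM in Tfam KO and 32.3, 40.1 and 41.7 FPKM in Control. The libraries were far apart, with a log2 fold change of 1.97 on the deposited scale (SE 0.23, adjusted p = 1.59e-15) and 1.65 on the size-factor scale (SE 0.14, adjusted p = 9.92e-05). Nars, for asparagine, had 92.4, 74.6 and 117 FPKM against 22.2, 27.9 and 25.7 FPKM. For Nars the log2 fold change was 1.85 on the deposited scale (SE 0.23, adjusted p = 1.96e-13) and 1.53 on the size-factor scale (SE 0.13, adjusted p = 9.78e-05).

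Cars, for cysteine, was the least abundant cytosolic enzyme in Control hearts. Its libraries were at 15.5, 10.5 and 16.7 FPKM in Tfam KO and 3.50, 3.76 and 3.45 FPKM in Control, the latter close together. The log2 fold change was 1.71 on the deposited scale (SE 0.23, adjusted p = 1.21e-11) and 1.43 on the size-factor scale (SE 0.13, adjusted p = 1.36e-04). Aars, for alanine, was at 37.5, 24.96 and 35.2 FPKM against 8.996, 8.36 and 11.4 FPKM. It changed by 1.65 on the deposited scale (SE 0.23, adjusted p = 1.16e-10) and 1.35 on the size-factor scale (SE 0.12, adjusted p = 1.54e-04). Of its annotated exon bases 15.1% are shared with its neighbours Exosc6 and Gm24103, and the part of those reads was not tested.

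Yars, for tyrosine, was at 23.9, 14.3 and 21.0 FPKM in Tfam KO and 6.02, 5.94 and 7.28 FPKM in Control, with no overlap. For Yars the log2 fold change was 1.46 on the deposited scale (SE 0.23, adjusted p = 2.71e-08) and 1.16 on the size-factor scale (SE 0.13, adjusted p = 6.42e-04). Tars, for threonine, was at 30.8, 21.9 and 34.6 FPKM against 11.7, 8.71 and 13.3 FPKM. All Tfam KO libraries were higher, and its log2 fold change was 1.29 on the deposited scale (SE 0.23, adjusted p = 1.74e-06) and 0.99 on the size-factor scale (SE 0.14, adjusted p = 0.00246). Wars, the tryptophan enzyme, which interferon is known to induce, rose from 8.72 ± 1.31 to 19.03 ± 2.65 FPKM, with 1.05 on the deposited scale (adjusted p = 3.02e-04) and 0.74 on the size-factor scale (adjusted p = 0.0255). Wars had the smallest change of the 14 on that scale. With size factors it lost the call when 1 library was left out: Tfam KO replicate 1 (adjusted p = 0.0753), replicate 2 of the same group (adjusted p = 0.0934), Control replicate 2 (adjusted p = 0.0645) or the third Control library (adjusted p = 0.104). The log2 fold change in these fits was 0.65 to 0.70.

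The phenylalanine enzyme is built from an alpha and a beta chain, and only the gene of the beta chain rose. Farsb, the beta chain, was at 19.7, 11.2 and 21.6 FPKM in Tfam KO and 5.72, 7.62 and 8.85 FPKM in Control. For Farsb the log2 fold change was 1.11 on the deposited scale (SE 0.23, adjusted p = 9.44e-05) and 0.81 on the size-factor scale (SE 0.15, adjusted p = 0.0124), and it missed the threshold when low genes were kept in the deposited fit (adjusted p = 0.115). Farsa, the alpha chain, was at 10.98, 6.14 and 8.34 FPKM in Tfam KO and 7.50, 6.45 and 7.23 FPKM in Control, with overlap and a log2 fold change of 0.21 on the deposited scale (adjusted p = 0.533) and -0.086 on the size-factor scale (adjusted p = 0.822). The ratio of Farsb to Farsa within a library, which does not depend on library scale, was 1.79, 1.83 and 2.58 in Tfam KO and 0.764, 1.18 and 1.22 in Control. The 2 transcripts were near parity in Control hearts and apart in each Tfam KO library (exact two-sided permutation p = 0.1, the smallest possible). This ratio was chosen after its values were seen. Farsb shares 9.47% of its annotated exon bases with Sgpp2 and Farsa shares 0%, and the part of those reads in the ratio was not tested.

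Hars and Vars did not pass. Hars, for histidine, was at 10.6 ± 0.663 FPKM in Control and 16.1 ± 4.11 FPKM in Tfam KO, and its log2 fold change was 0.53 on the deposited scale (adjusted p = 0.131) and 0.22 on the size-factor scale (adjusted p = 0.392). All Tfam KO libraries of Hars were above the Control libraries, by 11.5 against 11.4 FPKM at the closest. Vars, for valine, overlapped between groups at 7.29 ± 1.25 FPKM in Control and 9.96 ± 2.79 FPKM in Tfam KO, with 0.38 on the deposited scale (adjusted p = 0.258) and 0.088 on the size-factor scale (adjusted p = 0.810). Of the 3 enzymes for branched-chain amino acids, Lars and Iars rose and Vars did not pass, and the difference between them was not tested. In limma-voom on whole reads the log2 fold changes of Lars, Iars and Vars were 1.69, 1.51 and 0.078.

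Synthetases of class I and class II have unrelated catalytic folds, and both classes were among the genes that rose. Of 9 cytosolic class I genes 7 rose, with a median log2 fold change over all 9 of 1.002 on the size-factor scale, and of 10 class II genes 6 rose, with a median of 0.90. Eprs holds a domain of each class and was left out of this count. The medians in and outside the complex were 0.89 and 1.07. No difference between these sets was tested.

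**Figure D2:**
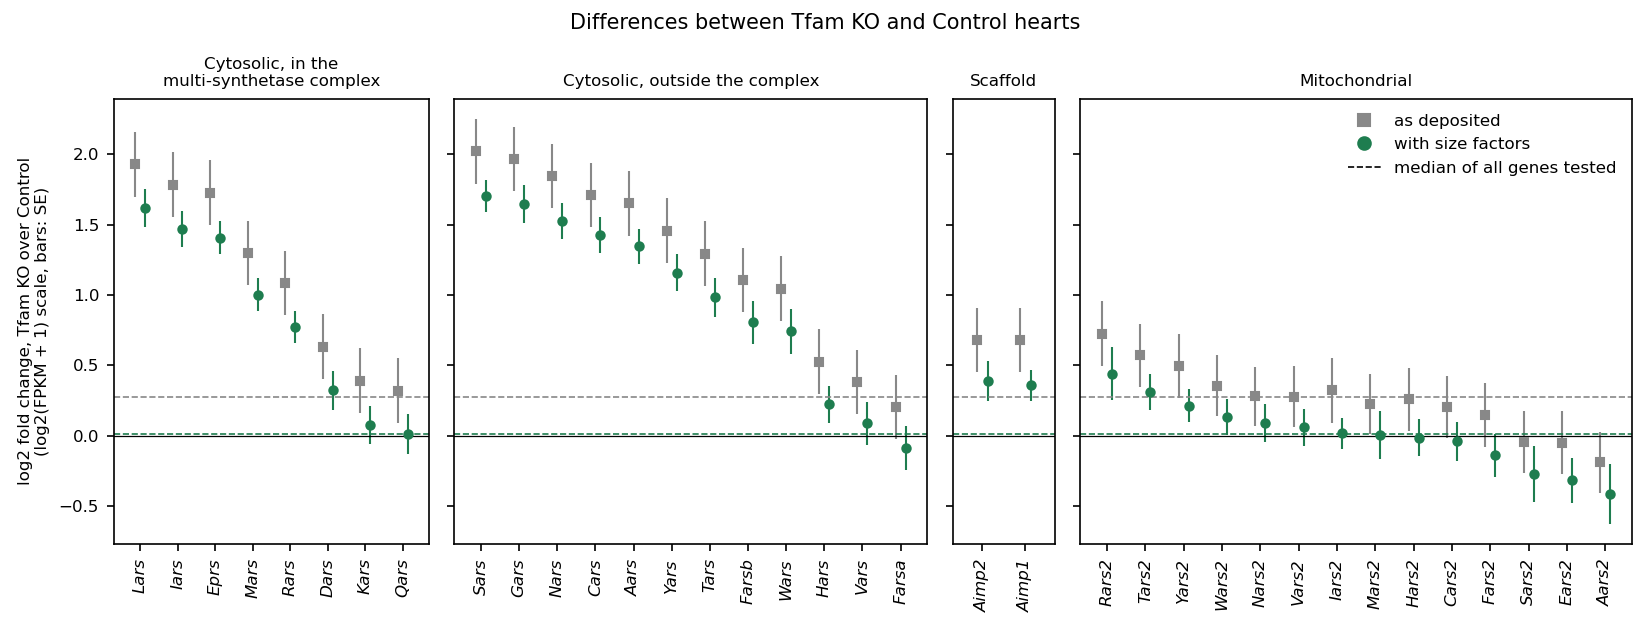
Log2 fold change of Tfam KO over Control for the 36 members tested, on the deposited scale (grey squares) and on the size-factor scale (green circles), with bars for the SE and dashed lines at the median of all genes tested on each scale. Cytosolic genes run from Sars at 1.70 to Farsa at -0.086 on the size-factor scale, and the mitochondrial genes lie on both sides of the median.

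Mitochondrial enzymes were measured at low levels, from Pars2 at 0.802 ± 0.364 FPKM in Control and 0.944 ± 0.467 FPKM in Tfam KO to Iars2 at 12.4 ± 1.25 FPKM in Control and 15.8 ± 2.09 FPKM in Tfam KO. With size factors 8 of the 14 tested had log2 fold changes above 0 and 6 below. Aars2, for alanine, had the lowest value. It was at 3.07, 1.49 and 1.86 FPKM in Tfam KO and 2.94, 1.59 and 3.20 FPKM in Control, and the groups overlapped. For Aars2 the log2 fold change was -0.19 on the deposited scale (SE 0.22, adjusted p = 0.545) and -0.41 on the size-factor scale (SE 0.21, adjusted p = 0.318). Ears2, for glutamate, was at 5.44, 4.197 and 4.15 FPKM against 4.47, 5.39 and 4.46 FPKM. Its groups overlapped too, with -0.049 on the deposited scale (SE 0.23, adjusted p = 0.885) and -0.32 on the size-factor scale (SE 0.16, adjusted p = 0.322). Sars2, for serine, was at 2.80, 2.65 and 2.19 FPKM against 3.16, 1.74 and 3.27 FPKM. Its value was -0.044 on the deposited scale (SE 0.22, adjusted p = 0.892) and -0.27 on the size-factor scale (SE 0.20, adjusted p = 0.518).

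At the other end were Rars2, Tars2 and Yars2, chosen after their values were seen. Rars2, for arginine, was at 9.14, 7.83 and 12.6 FPKM in Tfam KO and 3.46, 7.06 and 6.49 FPKM in Control, with Control replicate 1 below the rest. For Rars2 the log2 fold change was 0.73 on the deposited scale (SE 0.23, adjusted p = 0.0275) and 0.44 on the size-factor scale (SE 0.19, adjusted p = 0.234). Tars2, for threonine, was at 5.88, 3.53 and 5.40 FPKM against 2.87, 2.65 and 3.28 FPKM, with 0.57 on the deposited scale (adjusted p = 0.0873) and 0.31 on the size-factor scale (adjusted p = 0.223). Yars2, for tyrosine, was at 8.29, 5.57 and 9.20 FPKM against 4.79, 5.04 and 5.30 FPKM, with 0.50 on the deposited scale (adjusted p = 0.148) and 0.21 on the size-factor scale (adjusted p = 0.366). In Tars2 and Yars2, but not in Rars2, the Tfam KO libraries lay above all Control libraries also on the size-factor scale.

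The remaining mitochondrial genes tested, Cars2, Fars2, Hars2, Iars2, Mars2, Nars2, Vars2 and Wars2, had log2 fold changes from -0.14 (Fars2) to 0.13 (Wars2) on the size-factor scale. Fars2 shares 10.7% of its exon bases with Lyrm4 and Nrn1. On the deposited scale the values ran from 0.15 to 0.36. Iars2, whose exon bases are shared with neighbouring genes to 24.2%, had the highest level of the set. Values of these low genes on the log2(FPKM + 1) scale understate a change: the ratio of mean FPKM on the size-factor scale was 1.11 for Nars2, 1.15 for Wars2 and 0.659 for Aars2.

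The balance between the compartments was also read within each library, where library scale cancels. The summed FPKM of the 18 cytosol-only enzyme genes was 8.55, 8.13 and 9.38 times that of the 15 mitochondrial genes in the Tfam KO libraries and 3.93, 3.84 and 4.08 times in the Control libraries. The groups did not overlap, and the mean ratio was 2.196 times higher in Tfam KO (log2 3.12 ± 0.10 against 1.98 ± 0.046). An exact two-sided permutation test over the 6 libraries gave p = 0.1, the smallest that 3 against 3 allows. Of all reads, the 20 cytosolic genes took 0.281, 0.198 and 0.312% in Tfam KO and 0.0775, 0.0852 and 0.0953% in Control. The mitochondrial genes took 0.0214, 0.0162 and 0.0220% and 0.0142, 0.0154 and 0.0167%.

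For 12 amino acids the list held 1 cytosolic and 1 mitochondrial gene. In 8 of these pairs the ratio of the cytosolic to the mitochondrial transcript was higher in all Tfam KO libraries than in all Control libraries. In 4, for histidine, arginine, valine and tryptophan, the groups overlapped. The cytosolic gene of each of the 8 pairs is among those that rose, as are Rars and Wars of the other 4. The count of pairs is therefore no separate evidence, and the share over other gene pairs was not computed. Hars and Hars2 share exon bases with each other (7.97% and 4.56% of theirs), and the part of those reads in their ratio was not tested. Sars to Sars2 moved most, from 4.93, 9.17 and 5.65 in the Control libraries to 29.1, 21.5 and 34.4 in the Tfam KO libraries. Aars to Aars2 went from 3.06, 5.25 and 3.55 to 12.2, 16.7 and 18.9. Iars and Iars2 were near parity in Control, at 1.06, 1.25 and 1.27, and at 3.69, 2.97 and 3.53 in Tfam KO. For Vars to Vars2 the ratios were 4.16, 3.47 and 4.74 in Control and 5.10, 3.24 and 4.23 in Tfam KO, a mean log2 difference of 0.010. These ratios are given as values, since the exact permutation test cannot go below 0.1 with 3 libraries a group.

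**Figure D3:**
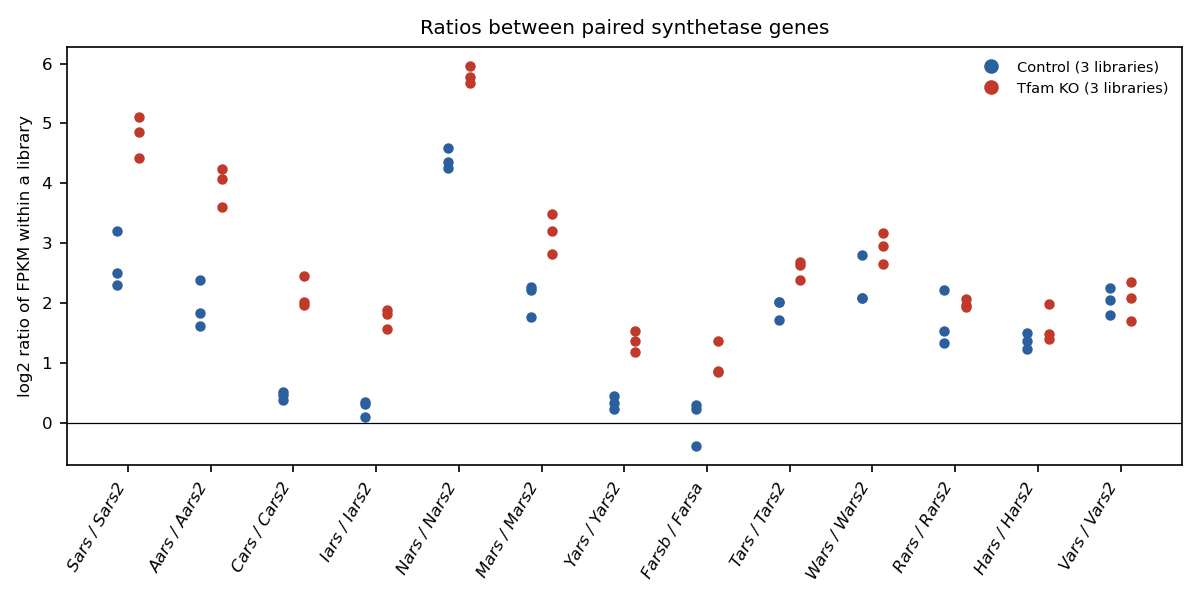
Log2 ratio of FPKM within a library for the 12 amino acids with 1 cytosolic and 1 mitochondrial gene and for the 2 chains of the phenylalanine enzyme, ordered by the difference between groups; each point is a library, Control in blue and Tfam KO in red. The pairs at the left, from Sars and Sars2 on, are separated between groups, and the last 4 pairs overlap.

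Within the cytosolic set, the make-up of the transcript pool differed. From Control to Tfam KO hearts, the share of Gars in the summed FPKM of the 20 cytosolic genes went from 13.4 ± 0.845% to 18.7 ± 1.58%, that of Sars from 5.90 ± 0.202% to 8.75 ± 0.860% and that of Nars from 8.96 ± 0.907% to 11.5 ± 0.957%. Kars went the other way, from 6.96 ± 0.347% to 3.22 ± 0.325%, as did Qars, from 4.70 ± 0.697% to 2.07 ± 0.131%, and Dars, from 5.73 ± 0.881% to 3.17 ± 0.425%. These shares are also free of library scale, and in each of these 6 genes, picked after their values were seen, the groups did not overlap. A share drops in any gene that rises less than the pool. The levels of Kars, Qars and Dars were not lower, with log2 fold changes of 0.076, 0.013 and 0.32 on the size-factor scale. Rars, which rose, went from 6.23% to 4.76% of the pool. The order of levels was led by Gars, Eprs and Nars among the enzymes in both groups, while Kars moved from rank 5 of the 37 members to rank 11 and Lars from rank 13 to rank 7. Few neighbours in this order were separated by their libraries: Nars and Kars were in Control, and Gars, Eprs and Nars were not separated from their next neighbour in Tfam KO.

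**Figure D4:**
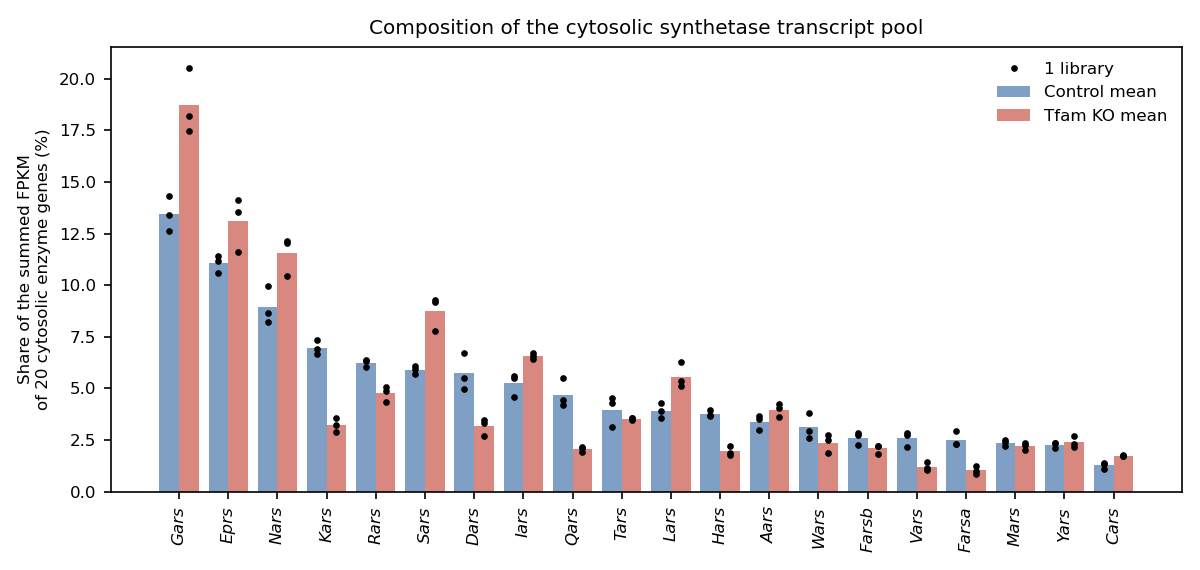
Share of each gene in the summed FPKM of the 20 cytosolic enzyme genes, in percent, with bars for the group means and points for single libraries. Gars, Eprs, Nars and Sars hold more of the pool in Tfam KO, and Kars, Dars, Qars and Hars hold less. A smaller share is not a lower level.

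Other genes of tRNA charging were taken from a list of 18 symbols. Gatb was listed also under its older symbols Pet112 and Pet112l, of which only Pet112l was found, so that gene is not missing. Of the 18 symbols 15 were found and 14 tested. Of these, 2 rose and 0 fell, against 2.07% and 0.953% of all genes, with a median log2 fold change of 0.091 on the size-factor scale. Xpot, the exportin that carries tRNA out of the nucleus, was at 26.8, 17.5 and 30.3 FPKM in Tfam KO and 5.61, 6.51 and 8.15 FPKM in Control. For Xpot the log2 fold change was 1.72 on the deposited scale (SE 0.23, adjusted p = 1.51e-11) and 1.42 on the size-factor scale (SE 0.12, adjusted p = 1.26e-04), a size in the range of the cytosolic enzymes. Trnt1, which adds the CCA end that every tRNA needs for charging, was at 8.97, 8.15 and 15.3 FPKM against 3.63, 4.97 and 5.74 FPKM, with 0.997 on the deposited scale (adjusted p = 6.30e-04) and 0.71 on the size-factor scale (adjusted p = 0.0311). The 3 subunit genes of the mitochondrial route that makes glutaminyl-tRNA by amidation, Qrsl1, Gatc and Pet112l (an older symbol of Gatb), had values of 0.30, 0.13 and 0.24 on the size-factor scale and did not pass. Lars2 was listed at 863 to 1609 FPKM, far above every other mitochondrial enzyme, so its value is uncertain as a measure of that enzyme. Atf4 was at 223, 159.8 and 211 FPKM in Tfam KO and 48.1, 38.3 and 46.1 FPKM in Control, and rose with a log2 fold change of 2.13 on the deposited scale (adjusted p = 2.23e-18) and 1.81 on the size-factor scale (adjusted p = 6.28e-05).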

How the data were processed

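Polyadenylated RNA was measured in 6 libraries, 3 Tfam KO and 3 Control. The deposited values are log2(FPKM + 1) per gene and library, as the values themselves show. CASAVA 1.8.2, TopHat2 2.0.7, HTSeq 0.5.3 and build mm9 are named without a role in the submitters' processing notes. The gene annotation and strand setting are not given in the sources used here, so overlapping genes may share reads.

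The 10807 genes averaging 1 FPKM or more were tested with limma 3.58.1 in R 4.3.3, with a pseudocount of 1 FPKM, a variance trend, all 6 libraries and Benjamini-Hochberg adjustment over all genes tested, at a threshold of 0.05. Fold changes on this scale understate the change of low genes. The same fit was run after division by median-of-ratios size factors (0.828 to 1.33). FPKM values fell on steps of whole reads for 17876 of 17876 genes above 0 (tolerance 1e-05 reads, widening with the read count). A gene above 0 in a single library does so by construction. With only a few libraries above 0 there are few ratios to match, so whole numbers are nearly sure to be found. The reads of a gene were the smallest whole numbers in the ratios between libraries, so a factor common to all libraries would be missed. The library totals rest on a value on which 240 genes agreed. On the recovered reads limma-voom called 276 genes higher and 461 lower. By rule, full values are given for the 12 members with the largest deposited log2 fold change, those lower by more than 0.25 after size factors, and the scaffolds; the rest have shorter statistics, except Farsa, Rars2, Tars2 and Yars2, whose full values were added after they were seen. Other genes come from a list for tRNA charging. Members and lists were chosen with earlier results of these data known. Ratios within a library were compared by an exact permutation test over libraries. Alternatives covered scale, pseudocount, filter, variance model, replicate block and each library left out. The fit was tested on simulated data. Promoters come from RefSeq (GRCm38.p6) and exon overlaps from GENCODE on GRCm38, neither of which is the build of the files, so they serve for sequence and neighbours only. P-values measure the spread between pools, on the deposited scale through the variance trend over all genes (prior degrees of freedom without limit), and the depth of 12370092 to 18078620 reads limits low genes such as Pars2, with 19 reads in its lowest library. A gene and a promoter stretch are not reported here.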

Additional observations from a re-analysis of the deposited data

How the results depend on the processing

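For the 14 genes that rose, 303 of 308 gene and setting combinations kept direction and call, 5 lost the call and 0 changed sign. Part of this was fixed in advance: the size-factor fit is among the 22 settings and also defines rose, so it could lose no call. Fits that changed only the filter, the variance trend or the replicate block keep the log2 fold changes, so no sign could turn there. The losses were Farsb without a filter on low values and Wars in 4 fits with size factors and a library left out, all given above; their cause was not tested. Higher members numbered 13 to 23 over libraries left out, with 23 when Tfam KO replicate 2 was left out of the deposited values, where 2273 of all genes were higher in place of 671. Without a filter 13 members were higher and with a replicate block 21 (14 with size factors). Higher mitochondrial enzymes numbered 0 with size factors, without a filter, with array weights, with the replicate block and size factors together and with limma-voom, 3 with the replicate block, and 0 to 3 over libraries left out. The cause was not tested. Whether replicate numbers pair the samples cannot be settled with 3 libraries a group. On the deposited scale the correlations of same-numbered libraries were 0.36, 0.05 and 0.17. Those of the other pairs ran from -0.41 to 0.25, and Tfam KO replicates 2 and 3 did not correlate best with their own number. The block moved the calls over all genes from 671 higher and 125 lower to 2083 and 241.

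The log2 ratio of cytosolic to mitochondrial levels differed by 1.13 between groups and ran from 1.08 to 1.18 over libraries left out, and was 0.99 by medians. Calls over all genes, higher then lower, were 671 and 125 in the deposited values, 224 and 270 after size factors, 145 and 22 without a filter, 591 and 688 with size factors and array weights, 287 and 394 with the block and size factors, and 276 and 461 with limma-voom. Signs turned in genes that did not pass. Size factors, alone or with the replicate block, put Farsa at -0.086, Cars2 at -0.038, Fars2 at -0.14 and Hars2 at -0.013. Array weights with size factors gave -0.068 for Farsa and -0.035 for Mars2, and limma-voom gave -0.11 for Farsa, -0.082 for Cars2 and -0.18 for Fars2. Over libraries left out, on both scales together, the log2 fold changes ranged from -0.24 to 0.40 for Farsa, -0.0038 to 0.65 for Kars, -0.072 to 0.56 for Qars, -0.061 to 0.58 for Vars, -0.12 to 0.30 for Cars2, -0.42 to 0.025 for Ears2, -0.23 to 0.20 for Fars2, -0.093 to 0.39 for Hars2, -0.014 to 0.42 for Iars2, -0.10 to 0.43 for Mars2, -0.47 to 0.069 for Sars2 and -0.0016 to 0.31 for Vars2.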
